A study of Homo sapiens with 4 samples.

Results

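The proteasome genes of OE33, an adenocarcinoma cell line of the human esophagus, were followed after transfection with a miR-223 precursor or a negative control precursor. Members were all probes whose gene name starts with PSM, a letter from A to G and a number, which gave 81 probes of 49 genes among 47321 probes and 34693 gene names on the array. Of these 49 genes, 48 encode subunits or regulators of the proteasome, and PSMC3IP matched by name alone. Each precursor was given at 10 nM with a lipid reagent, the cells were harvested 24 h later, and 2 samples of each group were read on Illumina HumanHT-12 v4 arrays (miR-223 replicates 1 and 2, control replicates 1 and 2). The submitters describe the replicates as biological. All cells came from 1 cultured line.

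The proteasome is the barrel-shaped protease that breaks down proteins tagged with ubiquitin. Its core particle is a stack of rings of alpha subunits (PSMA), which form the gate, and of beta subunits (PSMB), which hold the active sites. A regulatory particle of ATPases (PSMC) and non-ATPase subunits (PSMD) binds, unfolds and feeds in the substrate. Interferon signalling induces 3 immune beta subunits, PSMB8, PSMB9 and PSMB10, which replace the catalytic subunits PSMB5, PSMB6 and PSMB7 in newly built cores and alter the peptides offered to MHC class I molecules.

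The transfected agent carries the human miR-223 sequence, given here because it is what sets the groups apart. Both mature arms are shown as RefSeq lists them (GRCh38.p14, plus strand, chrX:66018937-66018958 for the 3p arm and chrX:66018895-66018916 for the 5p arm), 5′ to 3′, with the seed, bases 2 to 8, in capitals. The labels do not say which arm the precursor was designed to deliver.
hsa-miR-223-3p: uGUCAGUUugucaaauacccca
hsa-miR-223-5p: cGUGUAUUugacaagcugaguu

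The proteasome genes lay to both sides of 0 with no call in either direction. Of the 49 genes, 47 had at least 1 probe detected on 2 or more of the 4 arrays and were tested. Of the 81 probes of the 49 genes, 70 passed this filter. Each difference below is the log2 level in miR-223 cells minus that in control cells, fitted by limma over all 18629 tested probes. With the brightest probe standing for each gene, the 47 genes had a median difference of 0.013, with 24 above 0 and 23 below, against a median of 1.8e-06 over all 14521 tested genes. PSMD11, a lid subunit, had the lowest difference (-0.78) and PSMG4, a core assembly chaperone, the highest (0.39). No member passed limma at an adjusted p under 0.05, nor did any other probe on the array (0%), and the lowest adjusted p among members was 0.910. At an unadjusted limma p under 0.05 the count was 1 of 70 member probes, PSMD11, where the share over all tested probes was 5.45%. It was lower in miR-223 cells, as were 2.78% of all tested probes at that threshold, and 0 member probes were higher, where the share was 2.67%. The labels do not say that the arrays came from separate cultures beyond calling them biological replicates, so p-values measure the spread between these arrays.

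**Figure D1:**
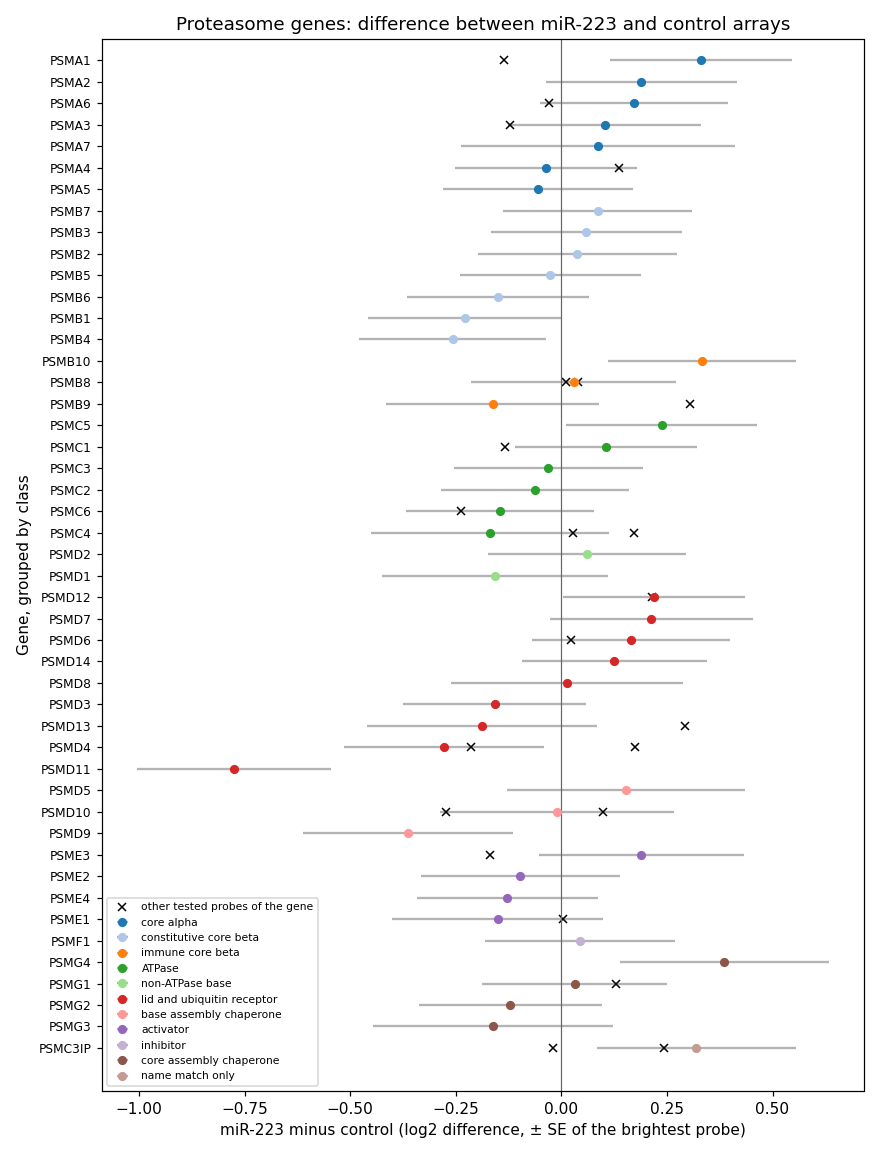
Log2 difference, miR-223 minus control, for the 47 tested proteasome genes (x axis), grouped by class on the y axis. Circles are the brightest probe of each gene with its standard error from limma, crosses are other tested probes of the same gene. All genes lie between -0.36 and 0.39 except PSMD11 at -0.78.

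The members' differences lay closer together than those of all tested genes, which was not tested. They had a standard deviation between genes of 0.21, against 0.28 over all tested genes. At least 0.3 on the log2 scale separated the groups for 6 of the 47 genes, where 25.7% of all tested genes did so, and at least 0.5 for PSMD11 alone, where the share was 7.96%. Brightness moves with these shares. Among the 35 members with a mean log2 intensity of 10.11 or more, 3 reached 0.3 (8.57%), and among all 2732 tested genes as bright, 13.1% did. In that brighter range the median absolute difference was 0.13 for the members and 0.12 for all genes. The cut at 10.11 follows the members' own intensities, keeping 35 of the 47 but only 2732 of all 14521 tested genes. It left out PSMD11, PSMD9 and PSMC3IP, which had reached 0.3. The miR-223 arrays lay above both control arrays for 9 of the 47 genes and below both for 8, while 30 overlapped. Over all tested genes 16.3% lay above, 17.2% below and 33.5% did not overlap, so these counts were near the background.

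**Figure D2:**
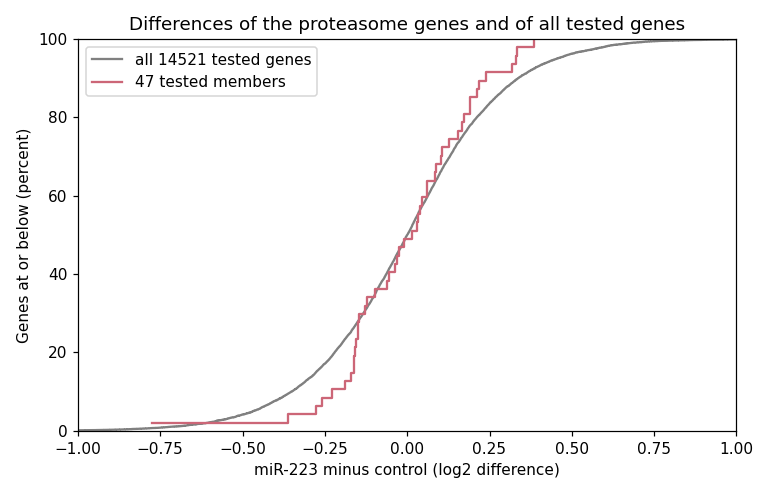
Cumulative percent of genes (y axis) by log2 difference, miR-223 minus control (x axis, shown from -1 to 1). The curve of the 47 members crosses 50 percent near 0, as does that of all 14521 tested genes, and is steeper.

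The precision was set by the number of arrays. The 95% interval of a member's difference reached 0.52 to each side at the median, and between 0.49 and 0.75 over the genes. More than 1 probe was tested for 18 genes, and in 13 of these the probes stood on opposite sides of 0: PSMA1, PSMA3, PSMA4, PSMA6, PSMB9, PSMC1, PSMC3IP, PSMC4, PSMD4, PSMD10, PSMD13, PSME1 and PSME3. The probes of a gene differed by 0.23 at the median and by up to 0.48 for PSMD13. For PSME1 the second probe stood at 0.0027 and was detected on 2 arrays. The share of such genes over the whole array is not given, so whether 13 of 18 is unusual was not tested.

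PSMD11 encodes the lid subunit that clamps the lid to the rest of the regulatory particle and touches the core, and its level is known to set proteasome assembly in human pluripotent stem cells. Its log2 intensity was 8.86 and 9.17 on the control arrays and 8.17 and 8.31 on the miR-223 arrays. Both miR-223 arrays were below both controls. The control mean was 9.02 ± 0.22 (SD, n = 2). The mean of the miR-223 arrays was 8.24 ± 0.10 (SD, n = 2). The difference was -0.78 ± 0.23 (SE), or 1.71-fold lower, with a 95% interval from -1.30 to -0.25. In limma its p was 0.00929 before adjustment and 0.910 after adjustment over all tested probes, so it did not pass.

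The raw bead signals of PSMD11 were 519.4 and 718.8 in control and 360.5 and 431.8 in miR-223 cells. The array with the highest signal, control replicate 2, also rested on the fewest beads, 12, with a bead standard error of 13.9% of the signal, against 5.73% to 7.85% on the other arrays. With 1 array left out the difference ran from -0.93 to -0.62, and it was -0.62 without control replicate 2. Without background correction it was -0.63, and the authors' deposited table gives a log2 fold change of -0.63 for PSMD11. The array holds 1 probe for this gene, so no second probe bears on the value.

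**Figure D3:**
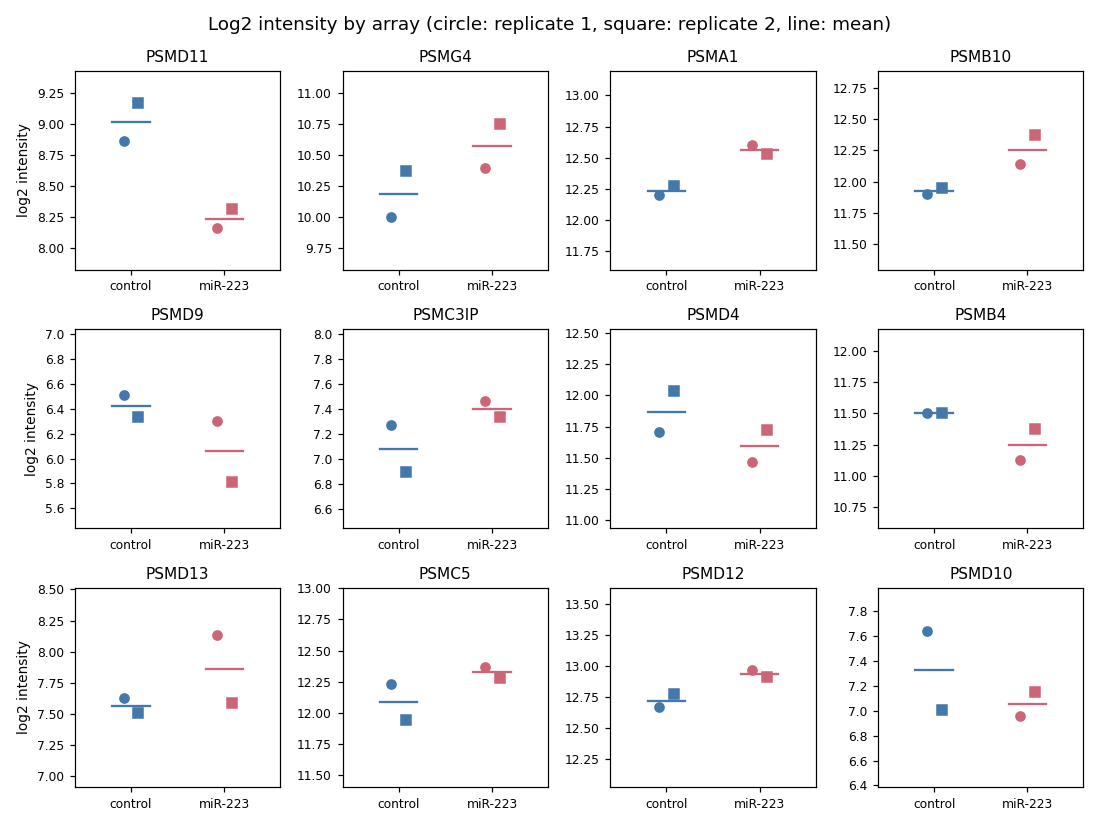
Log2 intensity on each array (y axis, the same span in each panel) for the 12 members with the smallest limma p, with control in blue and miR-223 in red, circles for replicate 1, squares for replicate 2 and lines for the mean of 2 arrays. The groups are farthest apart for PSMD11, from 9.02 to 8.24. In PSMD4, PSMD13 and PSMD10 the arrays of the groups overlap.

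The alpha subunits form the gate of the core. All 7 were tested, with a median difference of 0.10, 5 above 0 and 2 below, from -0.056 for PSMA5 to 0.33 for PSMA1. For 3 of them, PSMA1, PSMA2 and PSMA6, both miR-223 arrays lay above both controls, where 16.3% of all tested genes did, and for none below, where 17.2% did. PSMA1 was at 12.20 and 12.27 on the control arrays and at 12.60 and 12.53 on the miR-223 arrays. The groups were separated, with a difference of 0.33 ± 0.22 (SE), or 1.26-fold higher (limma adjusted p = 0.973). A second PSMA1 probe stood at -0.14, so its probes disagreed in sign. PSMA2 stood at 0.19 ± 0.23 (SE) and PSMA6 at 0.17 ± 0.22 (SE), the latter with a second probe at -0.030. PSMA7 was read by 1 dim probe whose control arrays were at 6.89 and 5.92, farther apart than the groups, whose difference was 0.087. The class median depended on the arrays used. It was 0.051 without miR-223 replicate 2 and 0.21 without miR-223 replicate 1.

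The constitutive beta subunits, which form the inner rings, had a median near 0. Their median was -0.026 over 7 tested genes, with 3 above 0 and 4 below, from -0.26 for PSMB4 to 0.086 for PSMB7. For 3 of them, PSMB1, PSMB4 and PSMB6, both miR-223 arrays lay below both controls, where 17.2% of all tested genes did, and for none above, where 16.3% did. PSMB4, a structural subunit without an active site, was at 11.51 on both control arrays and at 11.12 and 11.37 on the miR-223 arrays. Its difference was -0.26 ± 0.22 (SE), or 1.20-fold lower (limma adjusted p = 0.999). It was -0.13 without miR-223 replicate 1 and -0.38 without miR-223 replicate 2. PSMB1, also without an active site, stood at -0.23 ± 0.23 (SE). PSMB2 and PSMB3, which complete the ring, stood at 0.038 ± 0.24 and 0.059 ± 0.23 (SE). Whether alpha and beta subunits differ from each other was not tested. After scaling by the array median in place of quantile normalization, the class median was 0.030 for the beta and 0.15 for the alpha subunits. Both rose, as did the median of all members, from 0.013 to 0.061.

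Among the catalytic subunits, PSMB5 carries the chymotrypsin-like, PSMB6 the caspase-like and PSMB7 the trypsin-like site. PSMB5 was at 11.50 and 11.41 in control and at 11.43 on both miR-223 arrays, a difference of -0.026 ± 0.21 (SE). PSMB6 was at 12.30 and 12.39 in control and at 12.24 and 12.15 in miR-223 cells, a difference of -0.15 ± 0.22 (SE), with the miR-223 arrays below the controls. PSMB7 was at 12.75 and 12.96 in control and at 13.03 and 12.85 in miR-223 cells, a difference of 0.086 ± 0.22 (SE), with overlapping groups. All 3 intervals held 0, reaching from -0.52 to 0.47 for PSMB5, from -0.65 to 0.34 for PSMB6 and from -0.43 to 0.60 for PSMB7.

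The immune beta subunits were all detected on all 4 arrays in these epithelial cells. PSMB10, which takes the place of PSMB7, was at 11.90 and 11.95 in control and at 12.14 and 12.38 in miR-223 cells. Both miR-223 arrays were above both controls, and the difference was 0.33 ± 0.22 (SE), or 1.26-fold higher (limma adjusted p = 0.975). PSMB8, which takes the place of PSMB5, was at 9.78 and 9.99 in control and at 9.71 and 10.13 in miR-223 cells. The groups overlapped, and its 3 tested probes gave differences between 0.011 and 0.040. PSMB9, which takes the place of PSMB6, was at 6.86 and 7.04 in control and at 6.53 and 7.04 in miR-223 cells, a difference of -0.16 ± 0.25 (SE). A dimmer PSMB9 probe stood at 0.30 ± 0.43 (SE), with miR-223 arrays at 5.08 and 6.53, so the gene's direction was not settled.

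Each immune subunit was set against the constitutive subunit it replaces by taking their log2 difference within each array. This within-array difference moved by 0.056 for PSMB8 against PSMB5, by -0.012 for PSMB9 against PSMB6 and by 0.25 for PSMB10 against PSMB7, miR-223 minus control. The spread between the miR-223 arrays was larger than each of these shifts, with SDs of 0.30, 0.42 and 0.29 (n = 2). An exact permutation test over the 4 arrays, two-sided, gave p = 1 for the first pair, 1 for the second and 0.667 for the third, and all were 1 after Benjamini-Hochberg adjustment over the 3 pairs. With 2 arrays against 2 the smallest p this test can give is 0.333. The PSMB10 shift was 0.042 without miR-223 replicate 2 and 0.45 without miR-223 replicate 1.

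**Figure D4:**
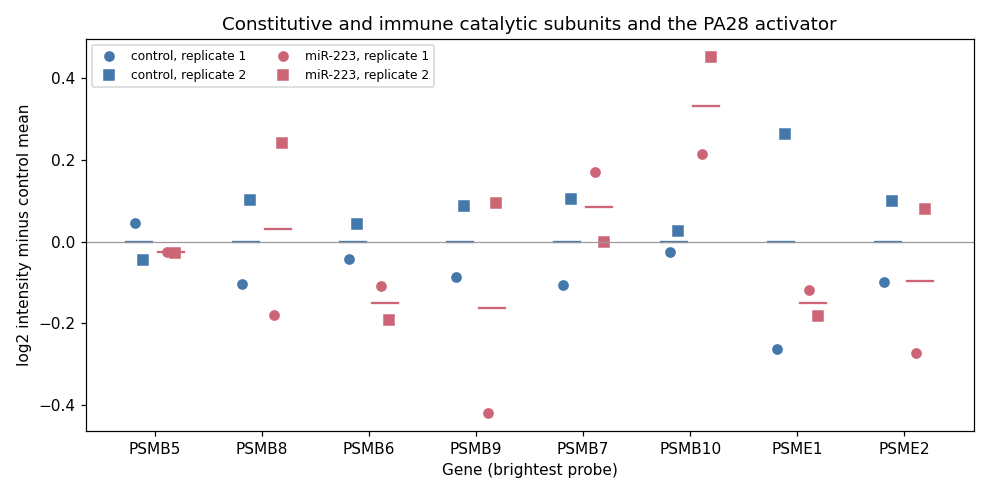
Log2 intensity of each array minus the control mean of the gene (y axis) for the constitutive catalytic subunits, the immune subunits that replace them and the PSME1 and PSME2 activator genes (x axis). Points are arrays and short lines are means of 2 arrays. PSMB10 is the 1 gene shown with both miR-223 arrays above both controls (mean 0.33), and PSMB6 the 1 with both below (mean -0.15).

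The ATPases form the ring that unfolds substrates. All 6 were tested, with a median of -0.047, 2 above 0 and 4 below. PSMC5 was at 12.23 and 11.94 in control and at 12.37 and 12.28 in miR-223 cells. Its arrays were separated, but the control arrays lay farther apart than the group means, and the difference was 0.24 ± 0.23 (SE; limma adjusted p = 0.999). It was 0.093 without control replicate 2 and 0.38 without control replicate 1. PSMC1 stood at 0.11 ± 0.21 (SE), also with both miR-223 arrays above the controls, and its second probe at -0.13. PSMC2 (-0.063), PSMC3 (-0.031), PSMC6 (-0.15) and PSMC4 (-0.17) had overlapping groups. The control arrays of the brightest PSMC4 probe were at 10.64 and 9.99, farther apart than the groups, and the other PSMC4 probes stood at 0.17 and 0.027. Without control replicate 1 the class median was 0.058, and without miR-223 replicate 2 it was 0.052, so its sign was not settled.

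The scaffold subunits of the base, PSMD1 and PSMD2, stood at -0.16 ± 0.27 and 0.061 ± 0.23 (SE). In the lid, with the ubiquitin receptor PSMD4 counted with it, 9 genes were tested, with a median of 0.013, 5 above 0 and 4 below. PSMD12 lay in the opposite direction to PSMD11. It was at 12.67 and 12.77 in control and at 12.97 and 12.91 in miR-223 cells, a difference of 0.22 ± 0.22 (SE). Its second tested probe gave 0.21, the closest match between probes among the members, and both probes had the miR-223 arrays above the controls. PSMD14, the deubiquitinase that removes ubiquitin from substrates, stood at 0.13 ± 0.22 (SE) and its partner PSMD7 at 0.21 ± 0.24 (SE). PSMD6 stood at 0.16, PSMD8 at 0.013 and PSMD3 at -0.16. For 2 of the 9, PSMD11 and PSMD3, both miR-223 arrays lay below both controls, where 17.2% of all tested genes did. For 1, PSMD12, both lay above, where 16.3% did.

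PSMD4, a receptor that binds ubiquitin chains, was at 11.71 and 12.03 in control and at 11.46 and 11.73 in miR-223 cells. The arrays overlapped, and the difference was -0.28 ± 0.24 (SE). It was -0.12 without control replicate 2, -0.15 without miR-223 replicate 1 and -0.44 without control replicate 1. Its other tested probes stood at -0.22 and 0.17. PSMD13 gave opposite values on its probes, -0.19 ± 0.27 (SE) on the brighter and 0.29 ± 0.25 (SE) on the other. On the latter the control arrays were at 7.62 and 7.51 and the miR-223 arrays at 8.14 and 7.58. A single miR-223 array was high there, and without it, replicate 1, the value was 0.018.

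Chaperones that help build the base were PSMD5, PSMD9 and PSMD10, with a class median of -0.011. PSMD9 was at 6.51 and 6.33 in control and at 6.30 and 5.81 in miR-223 cells. Both miR-223 arrays were below both controls, by little for replicate 1, and the difference was -0.36 ± 0.25 (SE), or 1.29-fold lower (limma adjusted p = 0.987). It was -0.12 without miR-223 replicate 2 and -0.61 without miR-223 replicate 1. The PSMD9 probe was dim, with raw signals from 151.9 to 182.4, where array medians ran from 114.5 to 118.4. Without background correction the difference was -0.16, and the authors' deposited table also gives -0.16. PSMD10, known as gankyrin and overexpressed in liver cancer, stood at -0.011 on its brightest probe and at 0.098 and -0.27 on the others. On the last of these the control arrays were at 7.64 and 7.01 and the miR-223 arrays at 6.96 and 7.15, with overlapping groups. PSMD5 stood at 0.15 ± 0.28 (SE).

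Activators open the core without ATP. PSME1 and PSME2 form the interferon-inducible PA28 ring, PSME3 a related nuclear ring, and PSME4 the large activator PA200. PSME1 was at 11.80 and 12.33 in control and at 11.94 and 11.88 in miR-223 cells, and PSME2 at 11.56 and 11.76 in control and at 11.39 and 11.74 in miR-223 cells. In both genes the groups overlapped, with differences of -0.15 ± 0.25 and -0.097 ± 0.24 (SE). PSME3 stood at 0.19 on its brightest probe and at -0.17 on the other. PSME4 stood at -0.13 ± 0.21 (SE), with both miR-223 arrays below both controls. The class median was -0.11, and 0.011 without control replicate 2. PSMF1, the inhibitor also called PI31, stood at 0.044 ± 0.23 (SE).

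Of the chaperones that assemble the alpha ring, PSMG4 had the highest difference among the members with all 4 arrays used, but not without control replicate 1 or miR-223 replicate 2. It was at 10.00 and 10.37 in control and at 10.39 and 10.74 in miR-223 cells. The lower miR-223 array lay just above the higher control array, and the difference was 0.39 ± 0.25 (SE), or 1.31-fold higher (limma adjusted p = 0.971). It was 0.20 without control replicate 1 and 0.21 without miR-223 replicate 2, where PSMA1 stood at 0.29 and 0.37, and it reached 0.57 without control replicate 2. Its partner PSMG3 stood at -0.16 ± 0.28 (SE), in the opposite direction. PSMG1 and PSMG2, which form the other pair, stood at 0.031 and -0.12. PSMC3IP, which encodes a recombination factor and no proteasome part, stood at 0.32 ± 0.24 (SE) on its brightest probe, with arrays at 7.27 and 6.89 in control and at 7.47 and 7.34 in miR-223 cells, and at 0.24 and -0.020 on the other tested probes. The first value was 0.13 without control replicate 2, 0.51 without control replicate 1 and 0.20 without background correction.

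The 2 genes that were not tested were PSMA8, a core alpha subunit of the testis, and PSMB11, the beta subunit of thymic epithelium. Their probes were detected on 0 of the 4 arrays. The other untested probes belonged to genes with brighter probes: PSMA1, PSMB8, PSMC3IP, PSMD4, PSMD12, PSMF1 and PSMG4.

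Promoter sequence was compared as a feature that the choice of members did not use. RefSeq windows of 250 bases before to 50 after a gene's start (GRCh38.p14) were at hand for 43 of the 49 genes, in 53 windows, since some genes have several that may overlap. The factor NFE2L1 raises proteasome genes together when proteasome activity is low, through antioxidant response elements. The core of this element, TGACNNNGC on either strand, was in 15 of the 53 member windows (28.3%) and in 13.3% of all 35116 windows. The genes with it were PSMA4, PSMB3, PSMB9, PSMC4, PSMC5, PSMD1, PSMD3, PSMD5, PSMD9, PSMD12, PSME1, PSME2, PSME4, PSMG1 and PSMG2. They did not share a direction: 5 of the 15 stood above 0 and 10 below, with a median difference of -0.12, and none was called. The stretches are shown with 10 bases on each side and the core in capitals, on the gene's strand, for the 6 of these genes that are among the 12 members with the smallest p or belong to the interferon-inducible subunits, since they are the letters these genes have in common.
PSMB9, chr6:32854034-32854062, plus strand: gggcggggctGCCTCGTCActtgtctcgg
PSMC5, chr17:63827654-63827682, plus strand: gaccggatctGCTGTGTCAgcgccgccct
PSMD9, chr12:121888631-121888659, plus strand: cgctactcctGCCGGGTCAccacaggcgc
PSMD9, chr12:121888678-121888706, plus strand: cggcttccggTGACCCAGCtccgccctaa
PSMD12, chr17:67366724-67366752, minus strand: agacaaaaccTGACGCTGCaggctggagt
PSME1, chr14:24136098-24136126, plus strand: atggcagggcTGACCCCGCctcctccatc
PSME2, chr14:24146767-24146795, minus strand: ccctggactgTGACCCAGCcagcaccgcc

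Letters that interferon-activated factors are known to bind were also searched on both strands. The core of the interferon-stimulated response element, GAAA repeated after any 2 bases, was in 7 of 53 member windows (13.2%) and in 3.57% of all windows. It was added after the windows had been read. Of these 7 genes, 3 stood above 0 and 4 below, with a median difference of -0.036. PSMG4 (0.39), PSMB10 (0.33) and PSMB8 (0.030) were those above. PSMA4 (-0.036), PSME2 (-0.097), PSME1 (-0.15) and PSMB4 (-0.26) were those below, PSMB4 with both miR-223 arrays under both controls. The gamma-activated site, TTCNNNGAA, was in 8 windows (15.1%) against 7.66% of all, and its holders with tested probes stood 4 above 0 and 3 below. Stretches are shown, with the match in capitals, for all 7 genes with the first and for the beta subunits with the second, PSMB5 (-0.026) and PSMB8.
PSMA4, interferon-stimulated core, chr15:78540155-78540184, plus strand: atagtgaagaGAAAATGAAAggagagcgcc
PSMB4, interferon-stimulated core, chr1:151399495-151399524, plus strand: tcgtctacagGAAAAAGAAAgaaatgacac
PSMB8, interferon-stimulated core, chr6:32844032-32844061, minus strand: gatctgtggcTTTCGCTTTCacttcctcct
PSMB10, interferon-stimulated core, chr16:67936852-67936881, minus strand: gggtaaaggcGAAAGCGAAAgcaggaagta
PSME1, interferon-stimulated core, chr14:24136189-24136218, plus strand: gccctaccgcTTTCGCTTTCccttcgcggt
PSME2, interferon-stimulated core, chr14:24146619-24146648, minus strand: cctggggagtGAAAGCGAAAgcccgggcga
PSMG4, interferon-stimulated core, chr6:3258904-3258933, plus strand: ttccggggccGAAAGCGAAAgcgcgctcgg
PSMB8, gamma-activated site, chr6:32844094-32844122, minus strand: aactgtccttTTCTCGGAAaaggcagggg
PSMB5, gamma-activated site, chr14:23035040-23035068, minus strand: cccgacccccTTCAGTGAAaatggtcttt
PSMB5, gamma-activated site, chr14:23034897-23034925, minus strand: ttgctaggcgTTCTCAGAAttagttcttt

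The CCAAT box (CCAAT on either strand) was in 22 of 53 member windows (41.5%) and in 34.6% of all. None of the 4 motifs was in the PSMD11 window, which is shown whole because this gene had the lowest difference. It lies at chr17:32444260-32444559 on the plus strand.
PSMD11: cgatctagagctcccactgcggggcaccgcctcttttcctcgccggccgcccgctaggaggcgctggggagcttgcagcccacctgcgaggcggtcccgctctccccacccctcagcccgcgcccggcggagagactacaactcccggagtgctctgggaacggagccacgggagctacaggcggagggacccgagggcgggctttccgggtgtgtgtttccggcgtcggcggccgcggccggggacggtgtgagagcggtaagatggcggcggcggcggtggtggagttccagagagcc

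Genes that work with the proteasome but lie outside the name rule showed the same absence of calls. Of 22 partners, such as receptors, shuttles and deubiquitinases, 21 were tested, with a median of -0.052. There were 7 above 0 and 14 below, where 50% of all tested genes stood above 0, and this count of signs was not tested. Of the partners, 0 passed limma after adjustment (0% of all tested probes) or at an unadjusted p under 0.05 (5.45% of all). That count was too near the share to set them apart. The partners with the smallest p were ZFAND2A, a stress-induced zinc finger protein of the proteasome, at 0.37 ± 0.23 (SE), and TXNL1, a thioredoxin-like protein bound to the regulatory particle, at -0.36 ± 0.23 (SE). NFE2L1 stood at 0.15 ± 0.31 (SE), with miR-223 arrays at 8.86 and 9.74 around the controls at 9.03 and 9.28. Over the 6 ubiquitin genes and activating enzymes the median was -0.10, with UBA1, an activating enzyme, at -0.26 ± 0.22 (SE). Of these 6, 0 passed limma after adjustment (0% of all tested probes) or at an unadjusted p under 0.05 (5.45% of all).

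Genes of interferon gamma signalling and antigen processing had a median of -0.079 over 11 tested of 13, and 0 were called in limma at either threshold. The shares of all tested probes called were 0% and 5.45%. Of the 11 genes, 2 stood above 0 and 9 below, where 50% of all tested genes stood above 0. Of those below, IRF8, IRF2 and ERAP1 were dim, with control means of 5.17, 5.39 and 5.43. The rest of those below had control means of 8.53 or more. TAPBP was among them at -0.0072, with its other tested probe at 0.31. Whether this count of signs differs from the background was not tested. JAK1, a kinase of the interferon receptors, stood at -0.38 ± 0.23 (SE). TAP1, whose gene lies between PSMB8 and PSMB9 in the RefSeq annotation, stood at 0.17 ± 0.24 (SE), and TAP2, next to PSMB8, at -0.079 ± 0.22 (SE).

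The arrays were alike in overall signal, with median raw intensities from 114.5 to 118.4, and 18036 to 18916 probes were detected. A tested member probe rested on a median of 21 beads on an array, from 8 to 42. Epithelial markers were all detected, 6 of 6. Of 9 leukocyte markers, 3 were tested (CD14, LYZ and CD68), with a mean log2 intensity between 7.06 and 7.31 on the 4 arrays, and PTPRC, CD3D, CD3E and NKG7 were detected on 0 arrays. CD14 stood at 0.38 ± 0.30 (SE) and CD68 at -0.21 ± 0.22 (SE). All cells came from 1 cultured line, so these values are not a measure of leukocytes in the samples. No fibroblast marker of 6 passed the detection filter.

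Arrays can also be set apart by their replicate number. Both arrays numbered 2 lay above both numbered 1 in 10 of the 47 genes and below in 13, where the shares over all tested genes were 22.8% and 20.4%. The median absolute difference between the numbers was 0.19 over the members, against 0.15 between miR-223 and control, and over all tested genes these were 0.20 and 0.17. It was 0.50 for PSMD8 and 0.48 for PSMD10, and -0.59 for PSMA7 and -0.53 for PSMD5, number 2 minus number 1.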

How the data were processed

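Array files as deposited hold, per the file headers, the mean bead intensity of every probe on a linear scale, its bead standard error and bead number, and a detection p-value in steps of 1 over 770. Log2 values per gene and quantile normalized intensity, both deposited by the authors, served as comparisons. The submitters' processing notes name GenomeStudio, BeadStudio and Partek; what each did, and the genome build, are not given in the sources used here.

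Signals were corrected by normexp on negative controls inferred from the detection p-values (offset 16), quantile normalized and taken to log2 (limma 3.58.1, R 4.3.3). Tested were probes that 2 or more arrays detected (p under 0.05), with lmFit and eBayes, group as the only term, two-sided, with Benjamini-Hochberg adjustment over all tested probes. The prior degrees of freedom were 6.24. On simulated data for this comparison (18629 probes), 87 of 100 probes changed by 4-fold and 5 of 100 changed by 2-fold were called. Pairs were tested by exact permutation (scipy 1.17.1).

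Groups and numbers came from the sample titles. The members, lists and classes were chosen with earlier results of these data known. Named were the 12 members with the smallest p, the immune subunits, their partners, PSME1, PSME2, PSMC3IP and up to 2 genes for each list, where a few list genes are not reported here; the other members' values describe their classes. Gene names are those in the array file, and synonyms were matched through RefSeq (GRCh38.p14). Precision is limited by the number of arrays, 2 per group. Alternatives were other background, normalization, filter, variance and block settings, and each array left out.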

Additional observations from a re-analysis of the deposited data

How the results depend on the processing

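No member probe passed limma under any setting run, and 0 to 1 probes on the whole array did when 1 array was left out, the 1 without control replicate 2. A lone array was assumed to vary like the other group. At an unadjusted limma p under 0.05, the count of member probes was 3 without background correction and 3 on the authors' normalized values (PSMD11, PSMA1 and PSMB10), 2 with no filter on dim probes, and 0 to 2 when 1 array was left out. PSMD11 kept its sign, from -0.93 to -0.62 with 1 array left out, and its lowest adjusted p was 0.389, with the replicate block. Same-numbered arrays deviated together (correlation 0.352 over probes), but no label ties a number to a shared experiment; the replicate block called 0 member probes and 0 probes in all, and left every difference as it was.

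The median of all members was 0.061 after median scaling, -0.018 to 0.019 with 1 array left out, and 0.021 without PSMD11, a choice made after seeing the data. After median scaling the medians were 0.15 for alpha, 0.030 for constitutive beta, 0.0060 for ATPases and -0.056 for activators, and PSMB5 stood at 0.030. Every class median rose under this scaling, so the rise was not particular to 1 class. The median of all tested genes under it is not given, so a shift shared by all genes was not set apart. With 1 array left out, medians ran from 0.051 to 0.21 for alpha and from -0.072 to -0.027 for constitutive beta. They ran from -0.085 to 0.058 for ATPases, from -0.18 to 0.041 for the lid and from -0.17 to -0.11 for base chaperones. For activators they ran from -0.14 to 0.011 and for core chaperones from -0.083 to 0.15. The base chaperone range left out the median with all arrays used, -0.011, and that after median scaling, 0.036. The constitutive beta range also left out the median with all arrays used, -0.026. Single genes ran from -0.59 to 0.046 for the dim PSMD10 probe, from -0.072 to 0.020 for PSMB5, from -0.020 to 0.19 for PSMB7, from -0.18 to 0.24 for PSMB8, from -0.42 to 0.094 for PSMB9, from -0.41 to 0.11 for PSME1 and from -0.27 to 0.078 for PSME2. The cause of the moves was not tested. With 2 arrays per group, changes of 2-fold were mostly not recoverable in simulated data.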
